A study of Mus musculus with 8 samples.

Results

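The genes described here are the enzymes and core partners of DNA methylation and of Polycomb repression. They are the maintenance methyltransferase Dnmt1 with its targeting factor Uhrf1, the de novo methyltransferases Dnmt3a and Dnmt3b, the demethylating dioxygenases Tet1, Tet2 and Tet3, and the Polycomb repressive complex 2 (PRC2) genes Ezh2, Eed and Suz12. They were chosen by symbol, and all 10 were found among the 57180 genes of the table. All 10 also passed the filter on low counts, which left 14755 genes for testing. RNA was sequenced from regulatory T (Treg) cells, CD4 T cells that restrain immune responses, which had been isolated by FACS from several mice. The sample titles form 2 groups, 5 chimera WT and 3 chimera KO libraries, and these names are used as given, since no targeted gene is named that could check them. The gene deleted in the KO cells, the make-up of the chimeras, and the strain, age and treatment of the mice are not given in the sources used here. Which animal gave which library is not stated. The p-values therefore reflect only library-to-library spread, which may be technical.

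DNA methylation is written at CpG dinucleotides by DNMT3A and DNMT3B. After each round of replication UHRF1 binds hemimethylated sites and brings DNMT1, which copies the mark to the new strand. The TET enzymes oxidise methylcytosine and so start its removal. PRC2 methylates lysine 27 of histone H3 through its catalytic subunit EZH2, while EED reads the mark and SUZ12 holds the complex together. In Treg cells, demethylation of the CNS2 element of Foxp3 by TET enzymes is known to keep the lineage stable, and EZH2 is known to be needed for repression in activated Treg cells.

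Library totals were 10.5 to 18.0 mega counts in the chimera WT and 4.31 to 8.48 mega counts in the chimera KO group. Values for single genes are normalised CPM (counts relative to the library total times its TMM factor), unless they are said to be per length. These factors were 0.4 in chimera WT replicate 4, 0.689 in replicate 5 and 1.08 to 1.49 in the other 6 libraries, so values of replicates 4 and 5 are scaled up. Both libraries stood apart in other ways. Genes with at least 10 counts numbered 8250 in chimera WT replicate 4 and 9484 in replicate 5, against 12491 to 14318 in the other 6 libraries. Whether this bears on genes at or near 0 counts there was not tested. The summed level of 7 CD8 T and NK cell markers was 4276 in chimera WT replicate 4, against 48.4 to 143 in the other chimera WT and 4.34 to 62.8 in the chimera KO libraries. Of these markers Ncr1 was at 0 counts in all 8 libraries, and Gzma, Prf1 and Klrd1 were also at 0 in all chimera KO ones. The sum of 5 B cell markers was 3107 there, against 199 to 554 and 78.2 to 194. The sum of 5 erythroid markers was 9102 in chimera WT replicate 5 and at most 22.2 elsewhere, with Hbb-bt at 0 in all chimera KO libraries. The sum of 6 myeloid markers was 3.65 to 297 in the chimera WT and 5.25 to 58.2 in the chimera KO group. The sum of the 7 T cell and Treg markers, none of which was at 0 in all libraries of a group, was 2822 to 6281 in the chimera WT and 787 to 2825 in the chimera KO group. Ikzf2, chosen after its values were seen, made up 4633 of the 6281 in chimera WT replicate 2. It stood at 81.05 in replicate 4, where the sum was 4317. Foxp3, the lineage-defining factor of Treg cells, stood at 11.95, 36.6, 41.95, 3.09 and 1.26 in chimera WT replicates 1 to 5. In chimera KO replicates 1 to 3 Foxp3 stood at 26.6, 2.69 and 24.2. Cd4 stood at 86.2 to 239 in chimera WT libraries, lowest in replicate 4, and at 99.5 to 128 in chimera KO ones. The part of other cell types in the results below was not tested, and in bulk RNA fewer cells of a type cannot be told apart from less RNA per cell.

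All 10 genes are protein-coding in the GENCODE M21 annotation of the mouse GRCm38 (mm10) build. Dnmt1 (ENSMUSG00000004099) lies on chromosome 9 from 20907209 to 20959888 on the minus strand, and Uhrf1 (ENSMUSG00000001228) on chromosome 17 from 56303321 to 56323486 on the plus strand. Dnmt3a (ENSMUSG00000020661) spans 3806007 to 3914443 of chromosome 12 and Dnmt3b (ENSMUSG00000027478) 153649450 to 153687730 of chromosome 2, both on the plus strand. Tet1 (ENSMUSG00000047146) spans 62804570 to 62908996 of chromosome 10, Tet2 (ENSMUSG00000040943) 133463679 to 133545139 of chromosome 3 and Tet3 (ENSMUSG00000034832) 83362373 to 83459084 of chromosome 6, all on the minus strand. Ezh2 (ENSMUSG00000029687) spans 47530139 to 47595341 of chromosome 6 and Eed (ENSMUSG00000030619) 89954654 to 89980983 of chromosome 7, both on the minus strand, and Suz12 (ENSMUSG00000017548) 79993106 to 80034123 of chromosome 11 on the plus strand. The libraries carry no strand information, so reads in exons shared with a gene on the other strand cannot be assigned. Such partners were annotated for 5 of the 10 genes: Dnmt3aos at Dnmt3a, Gm42567 at Tet2, Gm26625 at Ezh2, E230029C05Rik at Eed and Gm26563 at Suz12.

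Several of these genes are known as targets of E2F factors, which drive genes of DNA replication, so their promoters were searched for the E2F words TTTCCCGC, TTTCGCGC, TTTGCCGC and TTTGGCGC on both strands. Windows ran from 250 bases before to 50 after each RefSeq transcription start (GRCm38.p6), with 15 windows for the 10 genes. Of the 10 genes, 4 held a word (Dnmt1, Uhrf1, Ezh2 and Suz12), against 2.6% of 27025 genes with a window. Windows rich in CG dinucleotides held the words more often: among windows with at least 30, the share was 5.06% of 3837 overall and 4 of 8 for these genes. The matches are shown 5′ to 3′ along the gene, with the word in capitals, because such words are typical of replication genes, whose levels are given further on. Distances are from the RefSeq start of the window that held the word. These starts were base 20952623 for Dnmt1, 56304313 for Uhrf1, 47595030 for Ezh2 and 79993106 for Suz12. Those of Dnmt1, Uhrf1 and Ezh2 lie inside the annotated gene span given above. A match is a description of the letters and not a binding site.
Dnmt1, chr9:20952824-20952853, minus strand, word on the opposite strand 219 bases before the start: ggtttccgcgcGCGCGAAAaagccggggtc
Dnmt1, chr9:20952574-20952601, minus strand, word at base 34 after the start: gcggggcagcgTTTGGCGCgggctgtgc
Uhrf1, chr17:56304117-56304146, plus strand, word 185 bases before the start: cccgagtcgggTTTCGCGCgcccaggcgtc
Ezh2, chr6:47595009-47595038, minus strand, word at base 4 after the start: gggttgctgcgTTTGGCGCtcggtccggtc
Suz12, chr11:79992876-79992905, plus strand, word 219 bases before the start: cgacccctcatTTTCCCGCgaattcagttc
The window with the most CG dinucleotides was that of Tet2, with 57, against a median of 7 over all 32851 windows. The other genes had at least 1 window with 17 or more.

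Transcripts of the maintenance enzyme were found in every library, while its partner was near the detection limit in several. Dnmt1 stood at 35.1, 14.5, 107, 282 and 88.3 normalised CPM in chimera WT replicates 1 to 5 and at 38.1, 77.6 and 60.5 in chimera KO replicates 1 to 3. All 3 chimera KO values lay inside the chimera WT range. The log2 change, chimera KO minus chimera WT, was −0.84 (SE 0.98, 95% interval −3.04 to 1.35), and the adjusted p was 0.646 (edgeR quasi-likelihood test, adjusted over all genes tested). Without chimera WT replicate 4, which had the highest normalised CPM of Dnmt1, the log2 change was −0.06, and without replicates 4 and 5 it was 0.20. Uhrf1 stood at 1.25, 16.6, 1.09, 25.1 and 3.35 in chimera WT and at 0.0875, 2.09 and 0.716 in chimera KO libraries. These values rest on 13 to 191 counts in the chimera WT and on 1, 14 and 4 counts in the chimera KO libraries. chimera WT replicates 2 and 4 were high, the other 3 lay between 1.09 and 3.35, and chimera KO replicate 2 lay among them. Uhrf1 had the lowest log2 change of the 10, −3.29 (SE 1.64, interval −6.94 to 0.37), with an adjusted p of 0.365 in edgeR and 0.0351 in DESeq2. With 1 library left out it ran from −4.58 without chimera KO replicate 2 to −2.52 without chimera WT replicate 4.

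The de novo enzymes showed different patterns from each other. Dnmt3a stood at 181, 103, 157, 1.41 and 189 in chimera WT and at 62.2, 22.1 and 12.3 in chimera KO libraries. Of the chimera WT libraries 4 lay above all chimera KO ones, and replicate 4, with 10 counts, lay below them. The group means were 126 ± 77.4 (SD, n = 5) and 32.2 ± 26.4 (SD, n = 3). The log2 change was −1.97 (SE 1.26, interval −4.79 to 0.85), with an edgeR adjusted p of 0.436, and it ran from −2.93 to −1.59 with 1 library left out. Dnmt3b, which most adult cells express at low levels, stood at 14.8, 0.26, 20.01, 4.64 and 0.14 in chimera WT and at 4.72, 5.53 and 13.6 in chimera KO libraries. Dnmt3b was counted 178, 3, 238, 33 and 1, 54, 37 and 76 times, so that chimera WT replicates 2 and 5 were near the detection limit and the chimera KO libraries were not. The group means of Dnmt3b were 7.96 and 7.95, and its log2 change was −0.00 with an interval of −3.33 to 3.33.

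**Figure D1:**
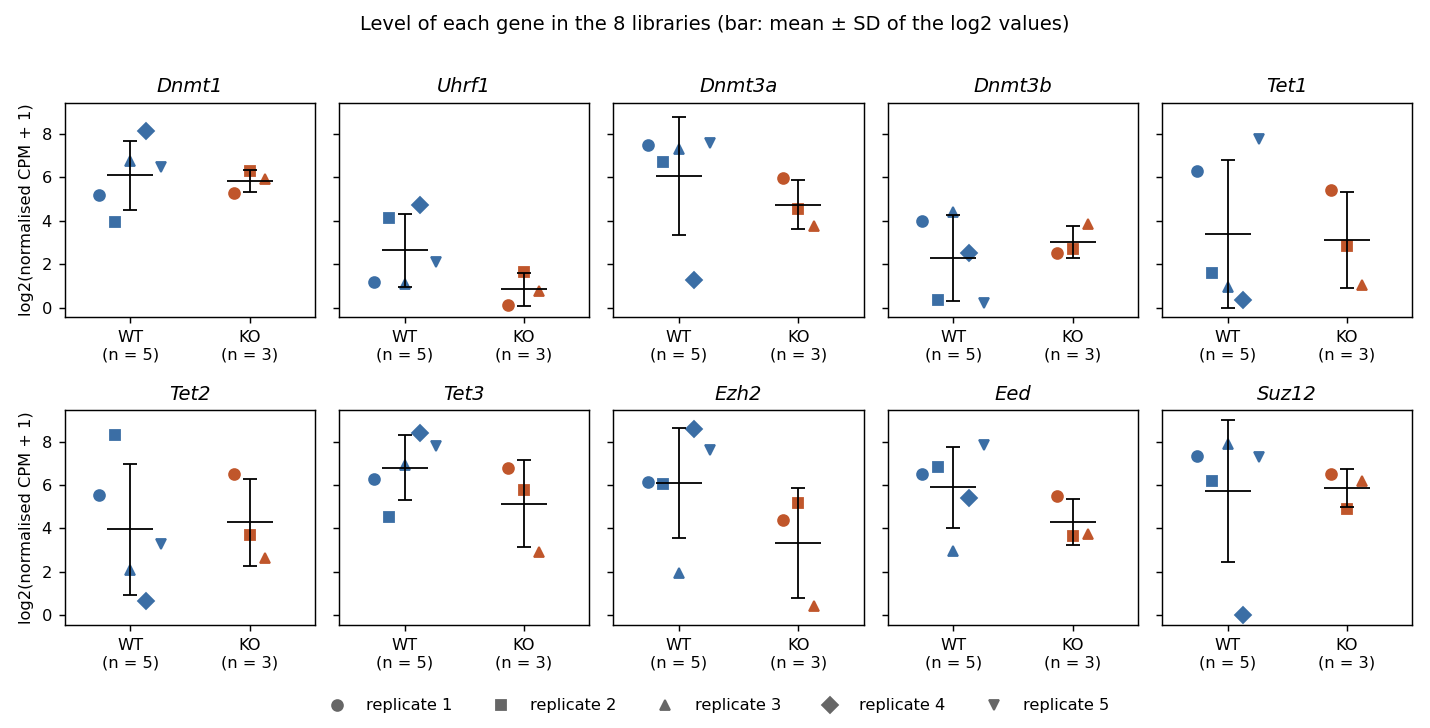
Level of each of the 10 genes in the 8 libraries, as log2 of normalised CPM plus 1, with 5 chimera WT (blue) and 3 chimera KO (orange) libraries, the marker shape giving the replicate and the bar the mean ± SD of the log2 values. The groups overlap for all 10 genes. On this scale, which raises chimera WT replicate 4 (diamond) by its low TMM factor, that library is highest for Dnmt1, Uhrf1, Tet3 and Ezh2. It is lowest for Dnmt3a, Tet1, Tet2 and Suz12.

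Among the TET genes, Tet3 was detected in all libraries and Tet1 and Tet2 were each concentrated in a few. Tet3 stood at 76.2, 22.1, 122, 335 and 222 in chimera WT and at 108, 54.0 and 6.44 in chimera KO libraries. chimera KO replicate 3 was lowest, with 36 counts, and the other chimera KO libraries lay inside the chimera WT range (log2 change −1.47, SE 1.09, edgeR adjusted p = 0.487). With 1 library left out it ran from −2.41 without chimera KO replicate 1 to −0.95 without chimera KO replicate 3. Tet1 stood at 78.8, 1.99, 0.925, 0.281 and 218 in chimera WT libraries, a span of 776-fold, and at 42.2, 6.13 and 1.07 in chimera KO libraries. It had 950, 1563 and 482 counts in chimera WT replicates 1 and 5 and chimera KO replicate 1, and 2 to 41 counts in the other 5 libraries. The log2 change was −1.86 (SE 2.09, edgeR adjusted p = 0.633), and it ran from −4.11 without chimera KO replicate 1 to −0.15 without chimera WT replicate 5. Tet2, often mutated in blood cancers, stood at 45.3, 313, 3.19, 0.562 and 8.65 in chimera WT and at 91.3, 12.0 and 5.19 in chimera KO libraries. chimera WT replicate 2 alone held 3608 counts, against 4 to 1044 in the other libraries. The log2 change was −1.03 (SE 1.80, edgeR adjusted p = 0.762), and it ran from −3.16 without chimera KO replicate 1 to 1.33 without chimera WT replicate 2.

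The 3 PRC2 genes differed in which libraries were high. Ezh2 stood at 69.6, 66.2, 2.86, 387 and 197 in chimera WT and at 19.9, 34.7 and 0.358 in chimera KO libraries. chimera WT replicate 3 and chimera KO replicate 3 were low, with 34 and 2 counts, while the other 4 chimera WT libraries lay above all chimera KO ones. The group means of Ezh2 were 144 ± 153 (SD, n = 5) and 18.3 ± 17.2 (SD, n = 3). Its log2 change was −2.98 (SE 1.62, interval −6.59 to 0.63), with an adjusted p of 0.385 in edgeR and 0.051 in DESeq2. With 1 library left out it ran from −3.84 to −2.20, and without chimera WT replicates 4 and 5 it was −1.28. Eed stood at 89.1, 112, 6.72, 41.6 and 229 in chimera WT and at 44.3, 11.5 and 12.3 in chimera KO libraries, with chimera WT replicate 3 the lowest of all 8. Its log2 change was −2.07 (SE 1.17, edgeR adjusted p = 0.394), and it ran from −3.08 without chimera KO replicate 1 to −1.38 without chimera WT replicate 5. Suz12 stood at 159, 70.7, 234, 0 and 154 in chimera WT and at 91.2, 28.9 and 70.7 in chimera KO libraries. chimera WT replicate 4 held 0 counts of Suz12, which allows up to 3 counts or 0.417 normalised CPM. The other libraries held 193 to 2781 counts. chimera WT replicate 4 had the highest total but the fewest genes with at least 10 counts (8250). The log2 change of Suz12 was −0.96 (SE 1.498, edgeR adjusted p = 0.734), and it ran from −1.39 without chimera KO replicate 1 to −0.58 without chimera WT replicate 3.

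Levels of different genes were compared per length, as TPM (length-scaled share of all transcripts) from the counts and the deposited gene lengths. By the median over the 8 libraries the order was Eed (44.1 TPM), Ezh2 (38.2), Suz12 (33.8), Tet3 (25.4), Dnmt1 (20.2), Dnmt3a (18.9), Dnmt3b (2.81), Tet2 (2.16), Uhrf1 (0.79) and Tet1 (0.638). By this median the PRC2 genes lay above the methyltransferases, and Dnmt3b, Tet2, Uhrf1 and Tet1 were at the bottom. No neighbours in this order differed beyond their spread in 9 comparisons. The widest step, from Dnmt3a to Dnmt3b, had Dnmt3a higher in 6 of 8 libraries (exact paired permutation test, two-sided, p = 0.0469, adjusted p = 0.422). Within single libraries the order changed. Eed was the highest of the 10 genes in 4 libraries (70.2 to 148 TPM), Suz12 in chimera WT replicate 3 and chimera KO replicate 3 (89.1 and 33.8 TPM), Ezh2 in chimera WT replicate 4 (63.3 TPM) and Dnmt1 in chimera KO replicate 2 (33.9 TPM).

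**Figure D2:**
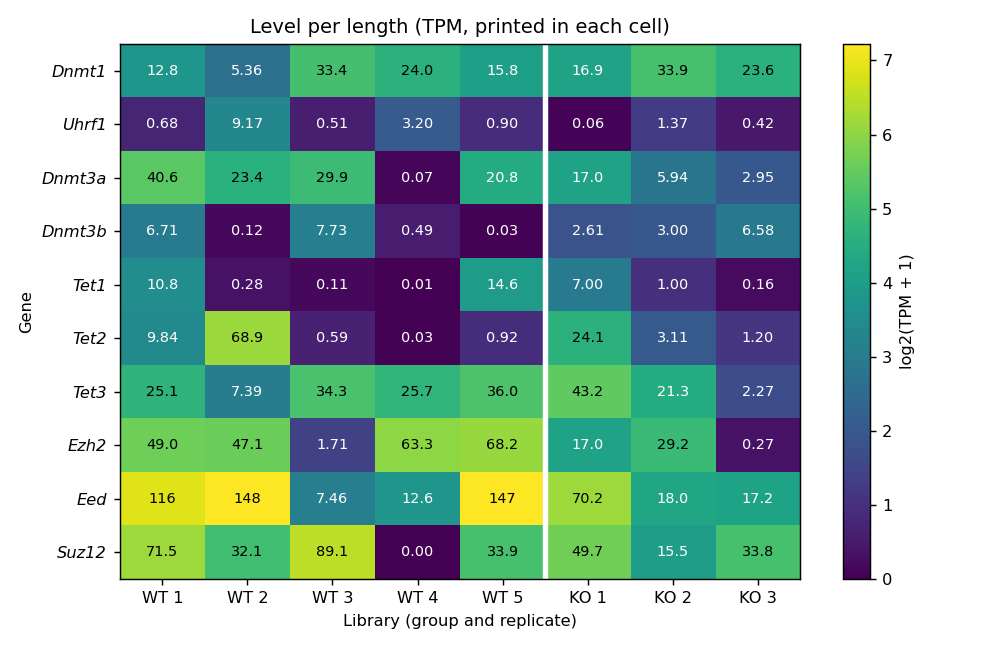
Level per length of the 10 genes (rows) in the 8 libraries (columns), in TPM, with the value printed in each cell and the colour showing log2 of TPM plus 1; the white line parts chimera WT from chimera KO libraries. Eed reaches 148 TPM in chimera WT replicate 2, and Suz12 is at 0 in chimera WT replicate 4.

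Set side by side, the 10 genes all had log2 changes at or below 0 with TMM and with DESeq2's size factors, and none passed the test. With total counts Dnmt1 and Dnmt3b turned to 0.25 and 0.41. By edgeR 0 of the 10 passed at an adjusted p under 0.05, and over all genes tested 0% did (common dispersion 1.67). At an unadjusted p under 0.05 the count was 0 of 10, against 14.4% of all genes tested (7.96% higher and 6.43% lower in KO). The groups were separated for 0 of 10, against 17.7% of all genes (13.2% higher and 4.49% lower in KO). DESeq2 called 1 of 10, Uhrf1, against 18.3% of the genes to which it gave an adjusted p. The median log2 change of the 10 was −1.67, beside −0.42 over all genes tested and −0.87 over the 10753 protein-coding genes tested. Positive log2 changes made up 0 of 10, 43.2% of all genes and 33.4% of protein-coding genes. These medians depend on the scaling, since the median of all genes went to 0.21 with total counts in place of TMM factors and to −0.72 with DESeq2's size factors. The share of all genes with a positive change was then 54.7 and 39.6%. Relative to the median of all genes, Ezh2 had −2.56 with TMM and −1.97 with total counts, and Uhrf1 −2.87 and −2.47. Dnmt1 had −0.43 with TMM and 0.04 with total counts.

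**Figure D3:**
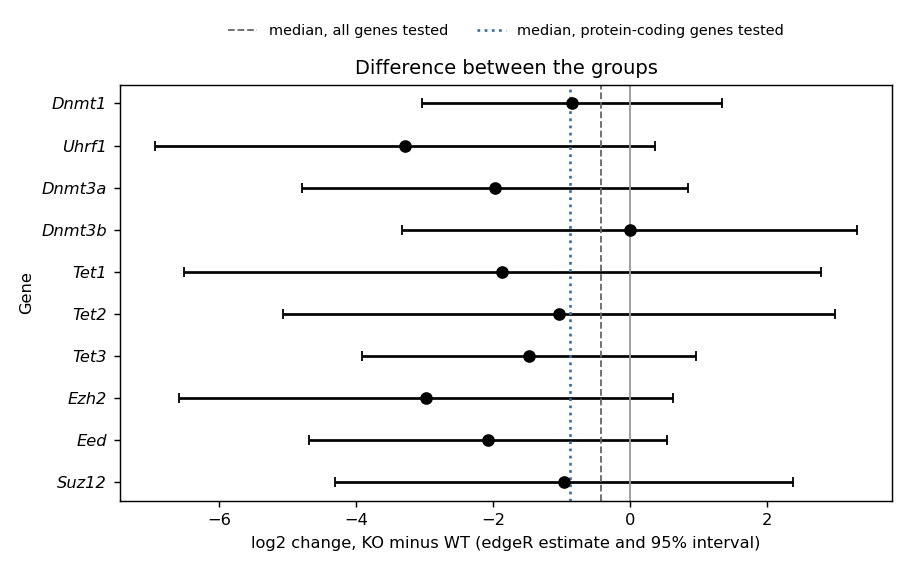
Log2 change of each gene, chimera KO minus chimera WT libraries, as the edgeR estimate with its 95% interval; the dashed line is the median of all genes tested (−0.42) and the dotted line that of protein-coding genes (−0.87). All 10 intervals include 0, and the lowest estimates are those of Uhrf1 (−3.29) and Ezh2 (−2.98).

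The spread between libraries of 1 group was wide for these genes. The SD of log2 CPM over the chimera WT libraries had a median of 2.70 for the 10 genes, beside 1.72 for all genes tested and 1.99 for protein-coding genes. Over the chimera KO libraries these medians were 1.32, 1.03 and 1.15. In the chimera WT group Suz12 had the highest SD (4.23) and Tet3 the lowest (1.52). The SD of Suz12 rests on chimera WT replicate 4 at 0 counts, where the prior count added before taking logs sets the value. Tet1 came next (3.90). In the chimera KO group Ezh2 had the highest (3.21) and Dnmt1 the lowest (0.52). In normalised CPM chimera WT replicate 4 held the highest value for 4 genes and the lowest for 4 others. As plain CPM, Uhrf1 was highest in chimera WT replicate 2, Dnmt1 in replicate 3 and Tet3 in replicate 5 instead.

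The genes were also summed within each library, as a description with no test. The sum over the 10 genes was 751, 720, 655, 1077 and 1310 normalised CPM in chimera WT replicates 1 to 5 and 502, 254 and 183 in chimera KO replicates 1 to 3. On this scale each chimera KO library lay below each chimera WT one. The same held for the sum over all protein-coding genes. In normalised CPM that sum was 725 to 2280 kilo CPM in the chimera WT and 480 to 581 in the chimera KO libraries. The separation was thus not particular to the 10 genes. As plain CPM, without TMM factors, the sums over the 10 genes were 854, 779, 698, 426 and 890 in the chimera WT libraries. They were 676, 373 and 237 in the chimera KO libraries, and the groups overlapped. Protein-coding genes as a whole held 81.8 to 90.3% of counts in the chimera WT and 78.4, 70.3 and 65.0% in the chimera KO libraries. Their part in the sums was not tested.

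**Figure D4:**
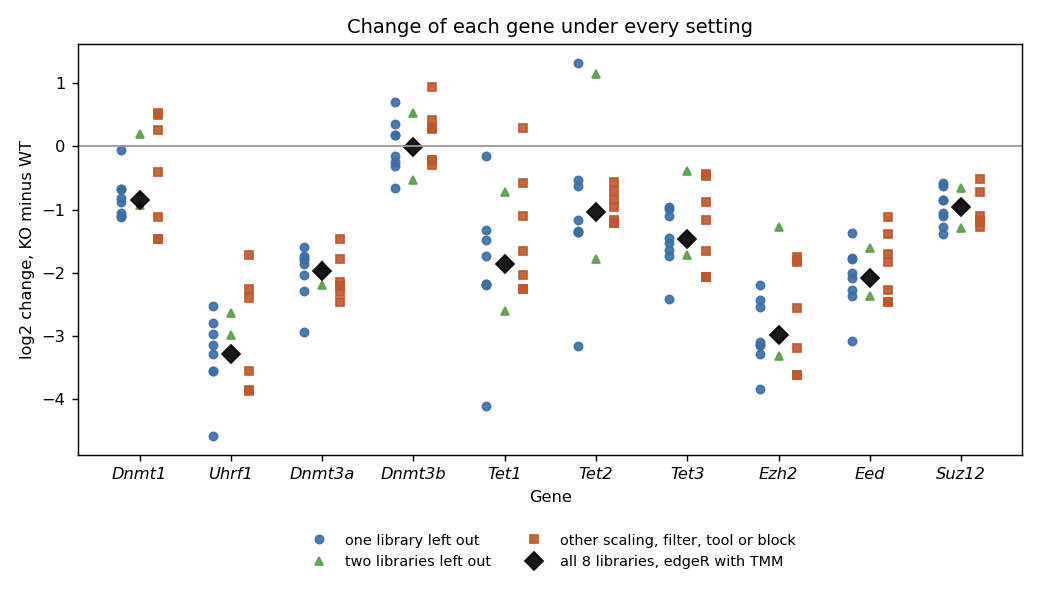
Log2 change of each gene under every setting: all libraries with edgeR and TMM (black), 1 library left out (blue), 2 libraries left out (green), or another scaling, filter, tool or the replicate block (orange). Dnmt3a, Tet3, Uhrf1, Ezh2, Eed and Suz12 stay below 0 throughout, while Dnmt1, Dnmt3b, Tet1 and Tet2 cross 0 in 1 to 9 of 17 alternatives.

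The other genes of both pathways were read from 7 lists, of which 84 genes were tested. By edgeR 0 of these passed, at an unadjusted p under 0.05 there were 5 higher and 4 lower in KO (10.7% together, beside 14.4% of all genes), and DESeq2 called 11 (13.1%, beside 18.3%). Of the other PRC2 subunits 8 of 8 tested genes had negative log2 changes (median −1.22, or −0.62 with total counts), with 1 at an unadjusted p under 0.05. Among them Mtf2, which brings PRC2 to CpG islands, stood at 227 ± 95.8 in chimera WT (SD, n = 5) and 164 ± 35.8 in chimera KO libraries (SD, n = 3). Aebp2, an accessory subunit of PRC2, stood at 157 ± 141 and 82.2 ± 27.2. The alternative catalytic subunit Ezh1, chosen after its values were seen, stood at 34.6, 15.7, 155, 1.26 and 199.8 in chimera WT and at 31.9, 3.44 and 4.12 in chimera KO libraries. Ezh1 was thus high in chimera WT replicate 3, where Ezh2 was low, and low in replicate 4, where Ezh2 was highest in normalised CPM. Both were high in replicate 5.

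PRC1, the complex that ubiquitinates histone H2A, gave a mixed picture, with 6 positive and 14 negative log2 changes among 20 tested genes (median −0.64). At an unadjusted p under 0.05 there were 2 higher and 1 lower, and the groups were separated for the same numbers, near the shares over all genes (14.4% and 17.7%). The values of these 3 genes are therefore given as a description. Pcgf6, a subunit of a variant PRC1, stood at 46.2, 109, 173, 59.4 and 164 in chimera WT and at 247, 298 and 435 in chimera KO libraries (log2 change 1.57, SE 0.63, edgeR adjusted p = 0.325). All 3 chimera KO libraries lay above all chimera WT ones. Phc3, a canonical PRC1 subunit, stood at 199.9 ± 64.0 and 93.6 ± 58.1 (SD). Bcor and Scmh1, chosen after their values were seen, were the other separated genes. Bcor, a variant PRC1 corepressor, stood at 78.4, 106, 83.4, 29.2 and 36.1 in chimera WT and at 14.3, 17.2 and 17.2 in chimera KO libraries. Scmh1, a PRC1-associated protein gene, had 0 to 8 counts in chimera WT and 138, 13 and 34 counts in chimera KO libraries. The list for removal of Polycomb marks holds 3 enzymes, the H3K27 demethylases Kdm6a and Kdm6b and the deubiquitinase Bap1, and 3 Asxl genes, whose proteins partner BAP1. Among the 6 tested genes 4 had negative and 2 positive log2 changes (median −1.16). The 3 enzymes and Asxl1 were the negative ones, Asxl2 and Asxl3 the positive ones (all 6 are named after their values were seen). Asxl2 stood at 502, 544, 741, 618 and 379 in chimera WT and at 636, 913 and 2039 in chimera KO libraries, and Kdm6a at 178 ± 107 and 50.1 ± 38.7 (SD).

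Partners and readers of DNA methylation had 2 positive and 12 negative log2 changes among 14 tested genes (median −0.91). The methyl-CpG binding protein gene Mbd2 stood at 240 ± 148 in chimera WT and 71.6 ± 59.3 in chimera KO libraries (SD), and the replication clamp Pcna, which also binds DNMT1, at 240 ± 150 and 77.9 ± 70.6. Pcna had 0.14 in chimera WT replicate 4, where Dnmt1 was highest in normalised CPM. The methyl-CpG reader Zbtb33 (Kaiso), chosen after its values were seen, had 0, 1058, 1018, 1040 and 697 counts in chimera WT libraries and 0 in all 3 chimera KO ones, which allows up to 3 counts in each. chimera WT replicate 1 was thus also at 0, and the groups overlap. Dnmt3l, the germ-cell partner of DNMT3A, was at 0 counts in all 8 libraries. Demethylation and base excision genes had 5 positive and 7 negative changes among 12 tested (median −0.68, or 0.05 with total counts), with Ogt, a sugar transferase that binds TET proteins, at 599 ± 116 and 336 ± 252 and the cytidine deaminase Apobec3 at 272 ± 220 and 134 ± 42.4 (SD). In the methyl donor list 6 of 7 had negative changes (median −1.93). The regulatory subunit Mat2b of the enzyme that makes S-adenosylmethionine stood at 531 ± 490 and 374 ± 24.7 and its catalytic partner Mat2a at 155 ± 140 and 52.8 ± 31.9 (SD).

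Genes of proliferation and DNA replication, of which Uhrf1, Dnmt1 and Ezh2 are known companions, were also read library by library, as a description. The sum of 19 replication genes was 530, 756, 761, 1017 and 3975 in chimera WT replicates 1 to 5 and 761, 1264 and 1585 in chimera KO replicates 1 to 3. A few genes carried much of these sums: in chimera KO replicate 3 Tyms with Mcm4 and E2f2, both chosen after their values were seen, made up 1477 of 1585, and the other 16 genes summed to 108. The median over the 19 genes was 3.40, 11.1, 20.3, 0.983 and 167 in chimera WT and 12.1, 19.1 and 5.37 in chimera KO libraries. Of the 19 genes 12 were highest in chimera WT replicate 5. In chimera WT replicate 4, where Uhrf1, Dnmt1 and Ezh2 were highest in normalised CPM, 11 of the 19 had under 10 counts. That library has a TMM factor of 0.4, and these ranks depend on the scale. As plain CPM Uhrf1 was highest in chimera WT replicate 2 (17.9, against 9.96 in replicate 4). Dnmt1 was then highest in chimera WT replicate 3 (114.4, against 111.6), and Ezh2 stayed highest in replicate 4. Per length Ezh2 was highest in chimera WT replicate 5 (68.2 TPM, against 63.3 in replicate 4). Tyms, thymidylate synthase, stood at 130 to 222 in chimera WT and 344, 568 and 965 in chimera KO libraries, and Stmn1, which destabilises microtubules, at 1079 in chimera WT replicate 5 and 34.0 to 132 elsewhere. Of the 17 tested genes 6 had positive and 11 negative log2 changes (median −1.93), and without chimera WT replicate 5 the median was −0.02.

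**Figure D5:**
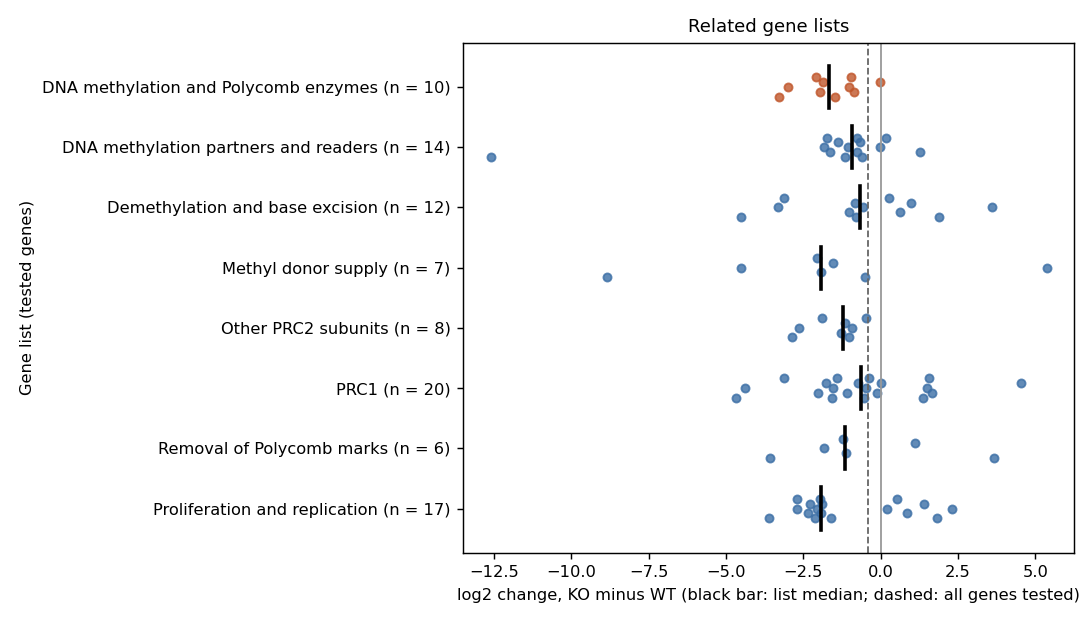
Log2 change, chimera KO minus chimera WT, of every tested gene (dot) in the 10 enzymes (orange) and 7 related lists (blue), with the list median as a black bar and the median of all genes tested as a dashed line. All 10 enzymes and all 8 other PRC2 subunits lie at or below 0 with TMM scaling; the point farthest to the left is Zbtb33, whose fitted change depends on the prior count because all chimera KO libraries are at 0.

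The genes with the most similar pattern were sought by the root mean square difference of log2 CPM, each gene centred on its mean over the 8 libraries, among 5682 protein-coding genes. The closest were Rpl22 to Dnmt1 (0.34 log2 units), Mfsd14a to Dnmt3a (0.36), Tpm4 to Eed (0.36) and Sharpin to Tet3 (0.42). Among the 10 genes themselves Dnmt1 and Tet3 lay 1.41 apart. Distances to Suz12 are not given, since its log2 value in chimera WT replicate 4, at 0 counts, is set by the prior count.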

How the data were processed

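Total RNA was extracted with TRIzol and made into libraries with the SMART-Seq V4 Ultra Low Input kit, per the labels' protocols, which does not mark strand. The authors deposited expected counts (fractional estimates) for each gene. Tools named in the submitters' processing notes, with no versions or roles, were fastp, HISAT2, StringTie, RSEM and DESeq2, with the mm10 build. The authors' group mean columns were not used, and gene length is as deposited. Libraries were grouped by title. No 2 libraries of a group agreed within sampling noise (chi-square per degree of freedom at least 66.8).

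Expected counts were rounded. The main test was the two-sided quasi-likelihood test of edgeR 4.0.16 (R 4.3.3), with TMM factors and without covariates, on genes kept by filterByExpr at a minimum count of 10, calling genes at a Benjamini-Hochberg adjusted p under 0.05 over the 14755 genes kept. Standard errors are the absolute log2 change over the root of F. DESeq2 1.42.0 and limma 3.58.1 (voom) served as alternatives, beside other scalings and filters, a replicate block and leaving out libraries. Log2 CPM used a prior count of 2. Promoter sequences are from RefSeq (GRCm38.p6), and all 10 genes matched by symbol. The 10 genes, lists and tests were chosen with earlier results of these data known. The text names all 10 genes, the 2 most abundant genes of each related list (as none passed) and the 4 closest patterns by the rule, and says where others were chosen after their values were seen. Limits from a count of 0 cover counting error only.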

Additional observations from a re-analysis of the deposited data

Results flagged for a closer look

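The 10 genes were checked for a single chimera WT library far from the other 4, by the gap to the nearest library as a share of the whole range (Dixon's test, critical value 0.71). Tet2 met this in chimera WT replicate 2, with 313 normalised CPM, while the other 4 libraries lay between 0.562 and 45.3, so the gap was 0.857 of the range. The chance of about 1 in 20 behind this limit holds for normally distributed values, which CPM are not. On log2 CPM the share for Tet2 was 0.322, under the limit, while chimera WT replicate 4 passed it as the lowest library for Dnmt3a (10 counts, 0.873 of the range) and for Suz12 (0 counts, 0.829), whose log2 value is set by the prior count. None of the 10 genes met the limit on both scales.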

How the results depend on the processing

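Of 169 member changes under alternatives, 152 kept their direction without a call, 1 became a call (Uhrf1 in DESeq2, log2 −3.87) and 16 turned sign. Only DESeq2 called any of the 10 genes, with 1 call. Over all genes the calls were 0 with edgeR, 1 with total counts, no filter or a mean of at least 5 CPM, 22 with limma-voom and 2421 with DESeq2. Leaving out each library gave 0 calls throughout. Uhrf1 did not pass the filter of 5 CPM.

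Dnmt1 turned to 0.25 with total counts, 0.50 with limma-voom, 0.52 with the replicate block and 0.20 without chimera WT replicates 4 and 5. Dnmt3b turned to 0.41, 0.94 and 0.28 with the first 3 of these, 0.30 with the filter of 5 CPM and 0.53 without the libraries named FY (chimera WT replicates 2 and 3). With single libraries left out, Dnmt3b ran from −0.65 to 0.70, being 0.35 and 0.70 without chimera WT replicates 1 and 3 and 0.19 and 0.17 without chimera KO replicates 1 and 2. Tet1 turned to 0.29 with the replicate block. Tet2 turned to 1.14 without the libraries named FY and 1.33 without chimera WT replicate 2, and ran from −3.16 to 1.33 with single libraries left out. The cause was not tested.

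List medians stayed below 0 in 115 of 119 cases. For DNA methylation partners the median went from −0.91 to −0.30 with total counts and without the libraries named FY, and for PRC1 from −0.64 to −0.20 and −0.17 in these and to −1.35 with the replicate block. For demethylation the median was 0.0475 with total counts. For the methyl donor list it was −2.37 with DESeq2's size factors and with DESeq2, −1.23 with total counts, −0.46 with limma-voom, −1.24 with the replicate block and −1.46 without the libraries named FY. For other PRC2 subunits it was −0.62 with total counts, −1.79 with no filter and −0.72 without the libraries named FY. For removal of Polycomb marks it was −0.55 with total counts and −0.49 with limma-voom. For replication it was 0.22 with limma-voom, 0.40 with the replicate block and 0.18 without chimera WT replicates 4 and 5. With single libraries left out, medians ran from −1.32 to −0.46 for DNA methylation partners, −1.37 to −0.31 for demethylation, −2.24 to −1.19 for the methyl donor list, −2.04 to −0.96 for other PRC2 subunits, −1.10 to −0.56 for PRC1, −1.46 to −0.86 for removal of marks and −2.18 to −0.018 for replication.

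Ranked by plain CPM and not per length, the order was Tet3 (1), Suz12 (2), Dnmt3a (3), Dnmt1 (4), Ezh2 (5), Eed (6), Tet2 (7), Dnmt3b (8), Tet1 (9) and Uhrf1 (10). No pairing by replicate number was seen, though with 3 chimera KO libraries the check could miss one. Deviations of same-numbered libraries correlated at 0.017 to 0.047, beside −0.065 to 0.046 for the other pairs. Of the 3 chimera KO libraries, 1 correlated best with its own number. The replicate block gave 0 calls, with 1331 genes at an unadjusted p under 0.05 against 2124 without it. Numbers 4 and 5 exist only in the chimera WT group, so under the block those libraries do not enter the KO minus WT difference. That difference then rests on replicates 1 to 3 of each group. Low counts limit Uhrf1 (1 to 14 in chimera KO libraries) and Tet1 (2 and 6 in chimera WT replicate 4 and chimera KO replicate 3).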

Other observations

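Ratios of 2 genes within a library, per length, do not depend on the scaling between libraries. They were chosen after the values were seen and were not tested. Some rest on few counts: chimera WT replicate 4 held 10 counts of Dnmt3a and 4 of Tet2. Dnmt3a over Dnmt1, de novo over maintenance enzyme, was 3.17, 4.37, 0.896, 0.00306 and 1.31 in chimera WT replicates 1 to 5 and 1.002, 0.175 and 0.125 in chimera KO replicates 1 to 3. The 4 chimera WT libraries other than replicate 4 lay at or above 0.896, and chimera KO replicates 2 and 3 lay below that. Tet2 over Tet3 was 0.392, 9.32, 0.0172, 0.00111 and 0.0257 in chimera WT and 0.559, 0.146 and 0.531 in chimera KO libraries, so Tet2 exceeded Tet3 only in chimera WT replicate 2 of the 8 libraries.

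Which catalytic subunit of PRC2 was the more abundant differed between libraries. Ezh2 over Ezh1 per length was 3.03, 6.34, 0.0278, 460 and 1.49 in chimera WT and 0.936, 15.2 and 0.131 in chimera KO libraries. Ezh2 thus exceeded Ezh1 in chimera WT replicates 1, 2, 4 and 5 and in chimera KO replicate 2. The 460 rests on 9 Ezh1 counts in chimera WT replicate 4. The 0.131 rests on 2 Ezh2 and 23 Ezh1 counts in chimera KO replicate 3. Ezh2 over Eed was 0.421, 0.318, 0.229, 5.01 and 0.464 in chimera WT and 0.242, 1.62 and 0.0156 in chimera KO libraries. The last value rests on the same 2 Ezh2 counts.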
